A study of Homo sapiens with 6 samples.

Results

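FN1 encodes fibronectin, a large glycoprotein of the extracellular matrix that cells bind through integrins. Its crosslink events were taken from iCLIP data on QKI-5, an isoform of the RNA-binding protein Quaking that is found mainly in the nucleus. Members were chosen by position alone: every line of the 6 crosslink files at chromosome 2, 216225163 to 216300895 on the minus strand (build hg19, counted from 1). This interval of 75733 nt is called the FN1 locus below. It held 2360 of the 8284652 file lines of the series, at 2188 distinct positions, and is 1 of 49797 strand-specific windows of its length that held any event.

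iCLIP joins proteins to RNA in living cells with ultraviolet light, recovers the protein with an antibody, and reads where reverse transcription stopped at the bound nucleotide. One such stop is a crosslink event. All libraries came from the established cell line BEAS2B, grown from human bronchial epithelium, irradiated with ultraviolet light and treated with RNase A after lysis. The 3 QKI-5 libraries were made with an antibody described as self-made, and the 3 control libraries with no antibody. Nothing in the labels says whether each replicate had its own culture. A p-value below therefore speaks only to the spread among these 6 libraries, and that spread may be technical. QKI-5 replicates 1, 2 and 3 held 7283982, 2143279 and 2889146 events, and control replicates 1, 2 and 3 held 137926, 41475 and 29810.

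Quaking belongs to the STAR family of RNA-binding proteins and regulates the splicing of many transcripts, often from sites in the introns beside alternative exons. The FN1 transcript is a textbook case of alternative splicing. Its extra domain exons EDA and EDB are skipped in the plasma form made by liver and can be kept in the cellular form made by fibroblasts and epithelial cells, and a variable region is cut in several ways. Exons were not placed on the data, because no hg19 annotation was used here. The label's alternative exons were therefore not checked, and positions are given as distances from the 5′ end of the locus, counted from 0. No sequence around the crosslinks is shown, because no hg19 genome was used here.

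The first comparison asked whether FN1 RNA took a larger part of the events with the antibody than without it. By mean level FN1 was among the most crosslinked stretches of its length in both groups, and its share of the library was not found to be higher with the antibody. The locus held 1640, 1112 and 452 events in QKI-5 replicates 1, 2 and 3, and 54, 21 and 6 events in control replicates 1, 2 and 3. Scaled to 1000000 events of the library (EPM), QKI-5 replicates 1, 2 and 3 had 225 (95% exact binomial interval 214 to 236), 519 (489 to 550) and 156 EPM (142 to 172). Control replicates 1, 2 and 3 had 392 (294 to 511), 506 (313 to 774) and 201 EPM (73.9 to 438). QKI-5 replicate 2 was the highest library and QKI-5 replicate 3 the lowest, so the groups overlapped over their whole range. Intervals here and below cover counting error only.

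Ordered by level, the libraries ran from QKI-5 replicate 2 through control replicates 2 and 1, QKI-5 replicate 1 and control replicate 3 to QKI-5 replicate 3. Among neighbours in that order, only the intervals of control replicate 1 and QKI-5 replicate 1 did not overlap. The 3 QKI-5 intervals did not overlap each other, so these libraries differed by more than counting error. The replicate numbered 2 was the highest and the replicate numbered 3 the lowest in each group.

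**Figure D1:**
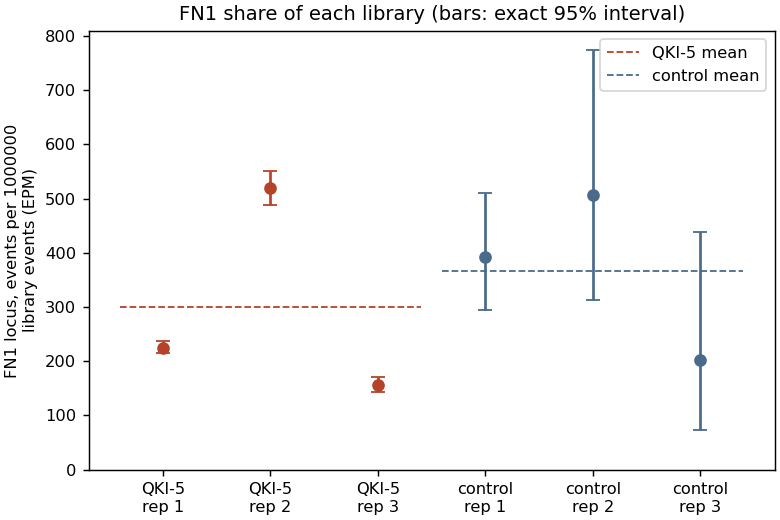
FN1 locus events per 1000000 library events (vertical axis, EPM) in each library (horizontal axis), with exact 95% binomial intervals as bars and group means as dashed lines. The QKI-5 libraries lie at 225, 519 and 156 EPM and the control libraries at 392, 506 and 201 EPM, and the groups overlap.

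The QKI-5 mean was 300.1 ± 192 EPM and the control mean 366 ± 154 EPM (SD, n = 3 each), a ratio of 0.819. The two-sided exact permutation test gave p = 0.8, where the smallest p it allows with 3 libraries against 3 is 0.1. The direction of this ratio rested on single libraries. Its log2 value was -0.29 with all libraries, 0.022 when QKI-5 replicate 3 was left out, 0.018 when control replicate 2 was, and -0.94 when QKI-5 replicate 2 was. Leaving out QKI-5 replicate 1 gave -0.12 and leaving out control replicate 3 gave -0.58. With the 20 heaviest control windows taken out of the library totals it was -0.47, and without mitochondrial events -0.30. Those 20 windows held 17.8, 24.0 and 14.9% of the events of control replicates 1, 2 and 3. In QKI-5 replicates 1, 2 and 3 they held 5.69, 11.9 and 7.06%. A share of events depends on how much FN1 RNA was present and on how often protein was crosslinked to it, and these cannot be told apart here.

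Across the genome, 14233 strand-specific windows of the locus's length had enough events to be tested, and 51 of them (0.358%) were higher and 46 (0.323%) lower in QKI-5 than in control libraries. Calls used the quasi-likelihood test of edgeR at an adjusted p under 0.05. With DESeq2 size factors in edgeR the split was 39 higher and 68 lower. FN1 was not called. Its log2 fold change, QKI-5 over control, was -0.24 (SE 0.32, 95% interval -0.87 to 0.39, adjusted p = 0.808 by edgeR). The median over all tested windows was 0.25, so FN1 lay 0.49 below it, and 26.3% of windows had a lower value. The interval of FN1 includes that median.

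QKI-5 replicate 2 weighed most on this value. Without it the log2 fold change was -1.19 (adjusted p = 0.0541 by edgeR, median of tested windows 0.07), while without control replicate 1 it was 0.075 (adjusted p = 0.955, median 0.88). Leaving out any other library gave values from -0.44 to -0.12.

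**Figure D2:**
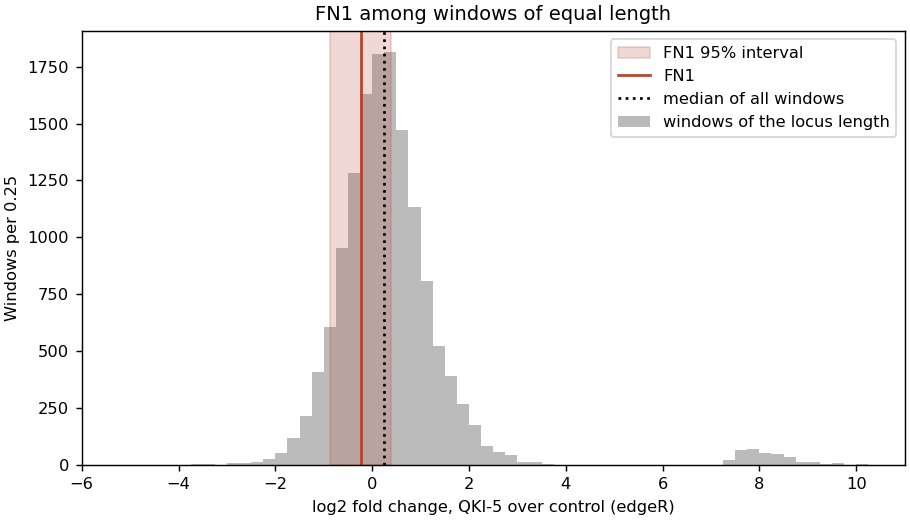
Distribution of the edgeR log2 fold change, QKI-5 over control (horizontal axis), over 14233 windows of the locus's length (vertical axis, windows per 0.25), with FN1 as a solid line, its 95% interval shaded and the median of all windows dotted. FN1 lies at -0.24, left of the median of 0.25, which its interval from -0.87 to 0.39 includes.

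By level, 212 of the 14233 windows had a higher mean than FN1 in QKI-5 libraries, and 85 had a higher mean in control libraries. For the median window these means were 40.2 EPM with the antibody and 36.2 EPM without it. Ranks differed by library: 497, 55 and 1065 windows were higher than FN1 in QKI-5 replicates 1, 2 and 3. In control replicates 1, 2 and 3 there were 82, 52 and 690. The 3 windows with levels most like those of FN1 over the 6 libraries, by Euclidean distance of log2(EPM + 1), lay at distances of 0.70, 0.94 and 0.95. The nearest was on chromosome X, minus strand, 153518239 to 153593971. QKI-5 replicates 1, 2 and 3 had 166, 362 and 145 EPM there, and control replicates 1, 2 and 3 had 370, 555 and 201 EPM. Next were the minus-strand windows 62487173 to 62562905 on chromosome 17 and 62259974 to 62335706 on chromosome 11. The likeness of all 3 follows from the rule that chose them.

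The events followed the strand and the borders of the locus. On the plus strand of the same interval there were 27, 3 and 13 events in QKI-5 replicates 1, 2 and 3 and none in the 3 controls. The minus strand therefore held 98.4, 99.7 and 97.2% of the interval's events in QKI-5 replicates 1, 2 and 3, and 100% in each control. The means were 98.4 ± 1.26% in QKI-5 libraries and 100% in controls, with every QKI-5 value below every control (two-sided exact permutation p = 0.1, the smallest possible). By a floor of 3 events, counts of 0 in controls 1, 2 and 3 allow a plus-strand share of up to 5.56, 14.3 and 50.0%, above each QKI-5 share. The difference was therefore not detectable at the controls' depth. Of the 43 plus-strand events, 40 lay more than 50 kb from the 5′ end of FN1 and 19 more than 70 kb, towards its 3′ end. In the RefSeq annotation of GRCh38, whose coordinates are not used here, ATIC overlaps FN1 on its 3′ side and the noncoding FN1-DT overlaps it at its 5′ side.

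On the minus strand, the 75733 nt upstream of the locus held no event in any of the 6 libraries. The same length downstream held 16, 9 and 8 events in QKI-5 replicates 1, 2 and 3, which equals 0.976, 0.809 and 1.77% of their FN1 events. It held 2 events in control replicate 1 and 0 in controls 2 and 3. The first QKI-5 events began 110, 107 and 110 nt from the 5′ end in replicates 1, 2 and 3, and the last lay 98, 86 and 608 nt before the 3′ end. These first and last events were sought only inside the interval, so of these values only the counts outside it bear on its borders. No minus-strand event lay in the stretch upstream, and a few lay in that downstream.

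Along the locus, QKI-5 events were spread over almost its whole length. Of the 76 bins of 1 kb, 59 held an event in each QKI-5 library and 1 held none in any. The longest stretch without a QKI-5 event was 1217 nt, from 45.866 to 47.082 kb. Peaks were low at single-nucleotide resolution: the 3204 QKI-5 events fell on 2139 positions, 2.82% of the nucleotides, and 1992 of these positions (93.1%) were hit in 1 library only. No single position held more than 10 events in a library.

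The 3 QKI-5 libraries placed their events in similar proportions along the gene. Across the 76 bins, Pearson's r of the event counts was 0.81 between replicates 1 and 2, 0.71 between 1 and 3 and 0.74 between 2 and 3. Against the summed controls it was 0.30, 0.40 and 0.29 for QKI-5 replicates 1, 2 and 3. Neighbouring bins share a transcript and are not independent, and the controls' 81 events leave most bins at 0, so these values only describe the profiles. Controls had an event in 34 bins, of which 23 were hit in 1 control library and 0 in all 3.

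**Figure D3:**
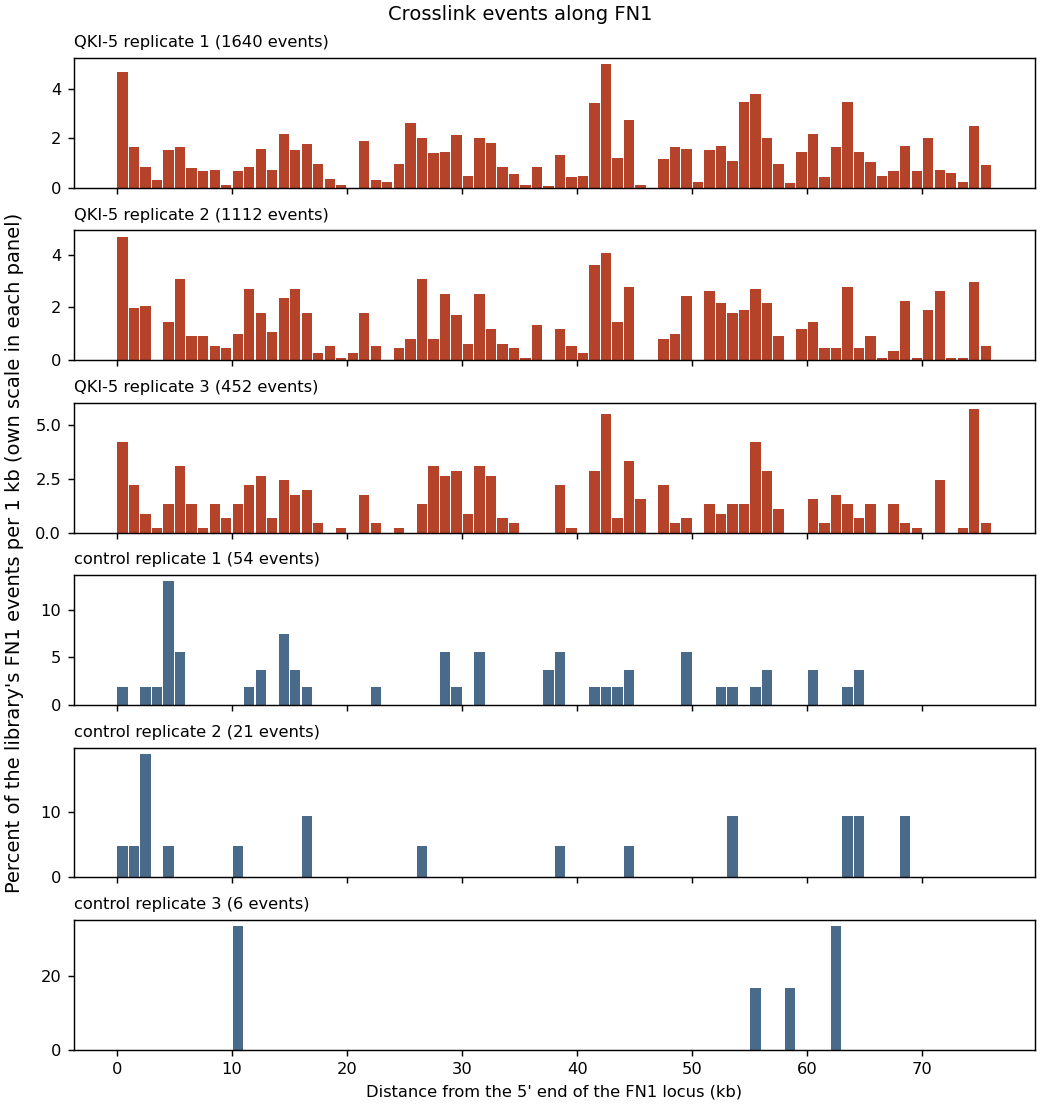
Percent of each library's FN1 events per 1 kb (vertical axis, own scale in each panel) against the distance from the 5′ end of the locus in kb (horizontal axis), QKI-5 libraries above controls. The QKI-5 panels share raised bins at 0 to 1 and 42 to 43 kb, and the 3 controls, with 54, 21 and 6 events, have no bin past 70 kb.

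The bins of 1 kb with the highest geometric mean EPM in QKI-5 libraries were picked out after their values were seen. The bin from 42 to 43 kb held 82, 45 and 25 events in QKI-5 replicates 1, 2 and 3, and 1, 0 and 0 in controls 1, 2 and 3. The first 1 kb held 77, 52 and 19 events in QKI-5 replicates, and 1, 1 and 0 in controls. Next came 55 to 56 kb with 62, 30 and 19 QKI-5 events, 74 to 75 kb with 41, 33 and 26, and 41 to 42 kb with 56, 40 and 13. These 5 bins span 6.60% of the length and held 19.4% of the QKI-5 events. The first 1 kb took 4.70, 4.68 and 4.20% of the FN1 events of QKI-5 replicates 1, 2 and 3, and 1.85, 4.76 and 0% of those of the controls (two-sided exact permutation p = 0.4). This test was added after the data were seen.

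In segments of 10 kb from the 5′ end, each full segment is 13.2% of the length, and the QKI-5 libraries departed from that share in the same way in several segments. The highest was 40 to 50 kb with 17.4, 16.4 and 17.3% of the FN1 events of QKI-5 replicates 1, 2 and 3, and 14.8, 4.76 and 0% of those of controls 1, 2 and 3. The lowest full segment was 30 to 40 kb with 8.54, 8.54 and 10.2% in the QKI-5 replicates and 14.8, 4.76 and 0% in the controls. The QKI-5 shares at 40 to 50 kb all lay above those of the controls, while at 30 to 40 kb the groups overlapped. At 20 to 30 kb the QKI-5 replicates held 13.0, 12.0 and 12.4% and the controls 9.26, 4.76 and 0%, again without overlap. In all, QKI-5 libraries lay above every control in 3 of the 8 segments, the last being that beyond 70 kb, and below every control in 0. Each of these 3 gave an exact permutation p of 0.1 (two-sided), the smallest possible. Control replicate 3, with 6 events, was at 0 in each of them.

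**Figure D4:**
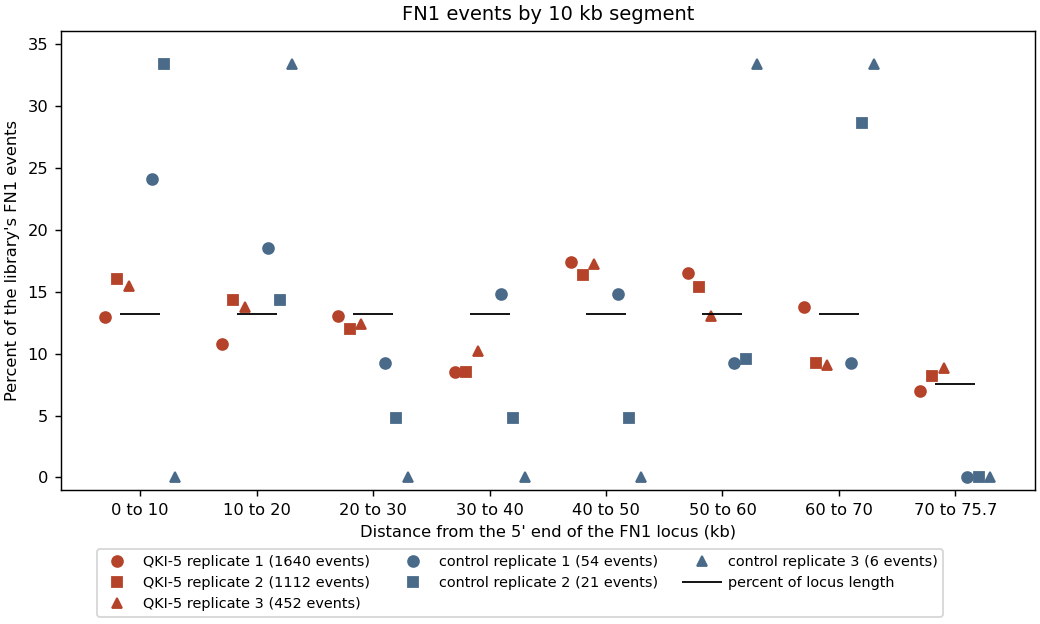
Percent of each library's FN1 events (vertical axis) in segments of 10 kb by distance from the 5′ end in kb (horizontal axis), 1 marker per library, with the share of the locus length as black lines. QKI-5 values lie between 7.01 and 17.4%, controls between 0 and 33.3%, and all 3 controls are at 0 in the last segment.

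At the 3′ end the groups also did not overlap, in a stretch of 10 kb that includes the segment beyond 70 kb. This stretch is 13.2% of the length, and the QKI-5 shares there lay slightly below that. In the last 10 kb, the 3′ end of the locus, lay 184, 132 and 55 events of QKI-5 replicates 1, 2 and 3, or 11.2 (95% exact interval 9.73 to 12.8), 11.9 (10.03 to 13.9) and 12.2% (9.30 to 15.5) of their FN1 events. In controls 1, 2 and 3 there were 0, 2 and 0 events, or 0, 9.52 (1.17 to 30.4) and 0%. By the floor of 3 events, the counts of 0 allow shares of up to 5.56% in control 1 and 50.0% in control 3. Every QKI-5 share lay above every control share, at means of 11.8 ± 0.485% and 3.17 ± 5.50% (SD, n = 3 each, two-sided exact permutation p = 0.1, the smallest possible). Control replicate 1 was the only control whose upper limit lay below the QKI-5 intervals. The difference was 6.99 to 11.8 percentage points with 1 library left out, the highest without control replicate 2. With each position counted once it was 9.30 percentage points.

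In the part beyond 70 kb, QKI-5 replicates 1, 2 and 3 held 115, 91 and 40 events, 7.01, 8.18 and 8.85% of their FN1 events. None of the 81 control events lay there, a count that allows a share of up to 3.70% over the pooled controls. Control replicate 1 held 54 of those 81 events. By library the floor was 5.56, 14.3 and 50.0% in controls 1, 2 and 3, so only that of control 1 lay below the QKI-5 shares. The segment is 7.57% of the length, so QKI-5 events were there about as dense as elsewhere.

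The first 10 kb showed no such order. It held 13.0, 16.0 and 15.5% of the FN1 events of QKI-5 replicates 1, 2 and 3, and 24.1, 33.3 and 0% of those of controls 1, 2 and 3. The means were 14.8 ± 1.61% and 19.1 ± 17.2% (SD, n = 3 each, two-sided exact permutation p = 0.7). The difference, QKI-5 minus control, was -4.31 percentage points with all libraries, 2.79 without control replicate 2, -13.9 without control replicate 3 and -1.84 without control replicate 1.

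The second test across the genome used 10 kb windows, of which 29960 were tested and 226 (0.754%) were higher and 32 (0.107%) lower in QKI-5 libraries. With library totals the split was 23 higher and 58 lower. All 9 windows that overlap the FN1 locus were tested, and 0 were higher and 0 lower (edgeR, adjusted p from 0.126 to 0.966). DESeq2 also called 0 of them, but it gave no adjusted p for those from 216220001 and 216300001 and so could not call them. By edgeR, 1 had an unadjusted p under 0.05, as did 18.4% of all windows tested. Near the 5′ end, 216290001 to 216300000 had levels of 20.9, 61.6 and 17.7 EPM with the antibody (replicates 1, 2 and 3) and 87.0, 145 and 67.1 EPM without it. Its log2 fold change was -0.98 (SE 0.53, adjusted p = 0.309 by edgeR), at a median of 0.78 over all tested windows. Each QKI-5 value lay below each control value in that window. Without QKI-5 replicate 2 it was called lower, with a log2 fold change of -2.44 (adjusted p = 0.0115 by edgeR). In that fit 951 windows passed the filter, this one alone of the FN1 windows, and 9.36% of them were lower and 10.7% higher.

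At the 3′ end, 216220001 to 216230000, of which 4838 nt belong to the locus, had levels of 12.4, 35.5 and 14.9 EPM with the antibody (replicates 1, 2 and 3) and no control event. This is the window with an unadjusted edgeR p under 0.05, at an adjusted p of 0.126. The pooled QKI-5 level was 17.0 EPM. With 3 events credited to the pooled controls as the floor, which is 14.3 EPM, that level was at least 1.18-fold higher. QKI-5 replicate 1, at 12.4 EPM, lay below that floor. The bound also rests on control replicate 1, without which the floor is 42.1 EPM, above the pooled QKI-5 level. The windows between 216240001 and 216260000 held the most QKI-5 events of the locus, with pooled levels of 44.2 EPM from 216240001 and 43.8 EPM from 216250001. Their log2 fold changes were 0.75 and 0.80, close to the median of all windows. Without control replicate 1 they were 1.33 and 3.33 (adjusted p = 0.233 and 0.0824 by edgeR), in a fit with a median of 6.69.

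Finer mapping used bins of 100 nt. Of 758 bins, 473 held a QKI-5 event and 107 held one in each QKI-5 library. The 10 that led by geometric mean of the QKI-5 levels held 30 to 41 QKI-5 events each, on 17 to 25 distinct positions, so none was a single repeated position. Together they held 11.4% of QKI-5 FN1 events and 13.6% of control FN1 events, in 1.32% of the length. The first share is fixed by the choice of bins, which used the same libraries.

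The top bin, 216300496 to 216300595, lay 300 to 399 nt from the 5′ end. It held 18, 12 and 10 events in QKI-5 replicates 1, 2 and 3, or 2.47, 5.60 and 3.46 EPM, and none in the controls. Second was 216226296 to 216226395 near the 3′ end, with 13, 8 and 17 events in QKI-5 replicates and none in the controls. The third, 216271896 to 216271995, held 10, 18 and 9 QKI-5 events and 3, 0 and 0 control events. Across the 10 bins the geometric mean ran from 3.63 to 2.69 EPM, and the next bin stood at 2.62 EPM, so no gap set them apart.

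Of the other 7 bins, 216296596 to 216296695 stood out for its control events. It held 18, 16 and 5 events in QKI-5 replicates 1, 2 and 3 and 5, 1 and 0 in controls 1, 2 and 3, which is 2.47, 7.47 and 1.73 EPM against 36.3, 24.1 and 0 EPM. The bins 216286796 to 216286895 and 216285396 to 216285495 held 1 control event each. The remaining 4, which begin at 216256396, 216245596, 216269296 and 216258996, held none. One control event equals 7.25 to 33.5 EPM, more than most QKI-5 values in these bins, so a control count of 0 cannot separate the groups here.

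Only 9 positions were hit in all 3 QKI-5 libraries. The 5 with the highest geometric mean held 5 to 9 QKI-5 events each and no control event. Position 216226315 held 1, 2 and 6 events in QKI-5 replicates 1, 2 and 3, and lies in the second bin above. Position 216257789 held 1, 5 and 2 events and position 216258084 held 1, 2 and 3. The others were 216279595 and 216285434. At such low counts, 1 event more or less can change the order. Positions 216279595 and 216258084 tied at a geometric mean of 0.510 EPM.

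To ask whether preferred bins recurred, the 20 leading bins were chosen in 2 QKI-5 libraries at a time and measured in the third and in the controls. They cover 2.64% of the length. They held 13.4, 19.8 and 15.9% of the FN1 events of the left-out QKI-5 replicates 1, 2 and 3, each several times the share of length. In controls 1, 2 and 3 they held 25.9, 25.4 and 0%, as means over the 3 choices. The group means were 16.4 ± 3.21% and 17.1 ± 14.8% (SD, n = 3 each, two-sided exact permutation p = 1). The recurrent bins therefore took no measurably larger share of events with the antibody. The difference of -0.73 percentage points became 3.68, 3.41 and -9.29 without control replicates 1, 2 and 3, 5.39 with bins of 50 nt, and -6.30 with each position counted once.

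**Figure D5:**
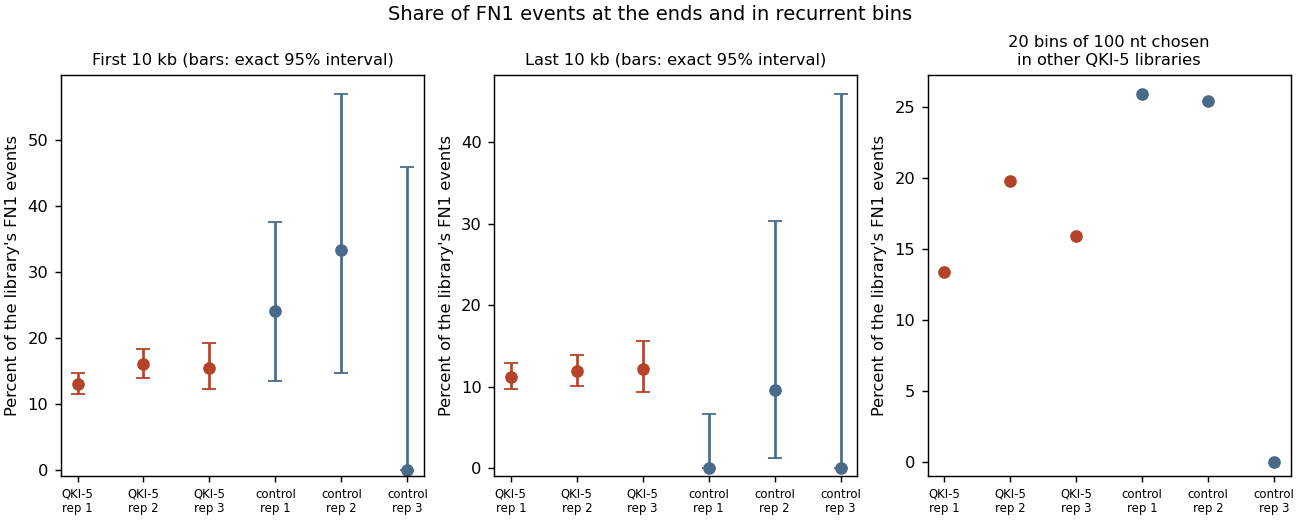
Percent of each library's FN1 events (vertical axes) in the first 10 kb, the last 10 kb and 20 recurrent bins of 100 nt, by library (horizontal axes), with exact 95% binomial intervals as bars in the first and second panels. The QKI-5 libraries lie close together in each panel, and of the 3 panels only the last 10 kb has all 3 above every control.

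The control events were few. Of 65 control positions, 16 (24.6%) also held a QKI-5 event, while 2.82% of the nucleotides of the locus did. In bins of 100 nt, 75 of the 81 control events (92.6%) fell in a bin with a QKI-5 event, and such bins were 62.4% of all. None of the 65 was hit in more than 1 control library. There were 5 bins of 100 nt with events in at least 2 controls, beginning 2700, 4200, 16800, 38400 and 53900 nt from the 5′ end, and each also held events in all 3 QKI-5 libraries. The bin from 2700 nt held 8, 17 and 4 events in QKI-5 replicates 1, 2 and 3 and 1, 4 and 0 in controls 1, 2 and 3.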

How the data were processed

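Each deposited file lists crosslink positions of 1 library with a strand and a whole-number count of events, not normalized by the authors. The submitters' processing notes name cutadapt, Bowtie and build hg19, and the sources used here give no versions. How PCR copies and reads with several alignments were treated is likewise not given. Library depth ran from 29810 to 7283982 events.

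Events were summed over the locus, over strand-specific windows of the locus's length (phased so that 1 window is the locus) and over 10 kb windows. Windows were tested with edgeR 4.0.16 (R 4.3.3, limma 3.58.1; TMM, filterByExpr, group as the only term, Benjamini-Hochberg over all windows), after a check on simulated counts. That check used large changes only, in windows with enough expected events, and does not speak to smaller changes. DESeq2 1.42.0 was an alternative. Single values used two-sided exact permutation tests over libraries (Python 3.11.15, scipy 1.17.1). Named bins and positions are the 10 and 5 that lead by geometric mean QKI-5 level, among those with an event in each QKI-5 library. The 3 most similar windows have the smallest distance to the locus.

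The members, lists and tests were chosen with earlier results of these data known. Planned counts by exon and around motifs, and lists of matrix, receptor and cell type marker genes, need an hg19 genome or annotation and were not analysed here. Whether the labelled cell type shows its markers was therefore not checked.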

Additional observations from a re-analysis of the deposited data

How the results depend on the processing

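The difference in the last 10 kb and that in strand share kept their direction under each alternative run. The groups did not overlap in either measure, so leaving out 1 library could not have reversed them. Counting distinct positions could have reversed only the difference in the last 10 kb, since no control had a plus-strand event. With 1 library left out, the log2 ratio of the FN1 share ranged from -0.94 to 0.022, the edgeR log2 fold change of the locus from -1.19 to 0.075, the difference in the first 10 kb from -13.9 to 2.79 percentage points and that in the recurrent bins from -9.29 to 3.68, which was 5.39 with bins of 50 nt and -6.30 with distinct positions. Minus the median of all windows in the same fit, that edgeR value ran from -1.26 to -0.20 with 1 library left out. The number of FN1 windows of 10 kb called lower ranged from 0 to 1, and none was called higher, but 1 or 2 of the 9 passed the filter without a QKI-5 library. With distinct positions 7 were tested. The window from 216220001 was tested in none of these fits and had no adjusted p by DESeq2, so it could not be called in them. Of the 9 windows, 3 changed direction. The one from 216230001 had log2 fold changes of 0.082 without a filter and -0.29 to 0.32 with 1 library left out, where the median of all windows also shifts. That from 216260001 had 0.27 without a filter, 0.12 with the replicate block and -0.34 to 2.31 with 1 library left out. That from 216280001 had 0.42, 0.12 and -0.43 to 1.42. The cause was not tested.

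Same-numbered libraries deviated from their group means with correlations of 0.02, 0.16 and 0.10 (log2 scale), not all above 0.1, so the numbers were not taken as pairs. With the number as a replicate block the locus had a log2 fold change of -0.28 and a log2 ratio of -0.38. The block left 6 higher and 20 lower windows of the locus's length (51 and 46 without it) and 0 and 0 of 10 kb (226 and 32). Over locus-length windows each library but QKI-5 replicate 1 correlated best with its own number, and over 10 kb windows each but QKI-5 replicate 1 and control replicate 1, a hint from the data and not from the design. Windows of the locus's length numbered 36 higher and 125 lower by DESeq2, 38 and 31 without a filter, 29 and 71 with distinct positions, and 0 to 52 and 0 to 57 with 1 library left out. Windows of 10 kb numbered 23 to 831 higher and 6 to 130 lower over the unblocked alternatives. Medians of all locus-length windows were 0.25 with TMM, 0.20 with library totals and 0.11 with DESeq2 size factors. With distinct positions, an alternative added after the data were seen, the 10 named bins moved by less than 1 SD. Control depth limits every comparison: 1 event is up to 33.5 EPM.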

Other observations

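Repeated events were measured inside and outside the FN1 locus. The locus held 1.25, 1.58 and 1.62 events per position in QKI-5 replicates 1, 2 and 3, while the rest of each library held 1.39, 1.72 and 1.75. In controls 1, 2 and 3 the locus held 1.17, 1.40 and 1.50 events per position, and the rest of each library held 1.30, 1.61 and 1.62. The share of positions with more than 1 event did not follow that order. In the locus it was 19.1, 40.8 and 41.9% for QKI-5 replicates 1, 2 and 3, and outside it 19.7, 36.4 and 42.1%. In controls 1, 2 and 3 it was 15.2, 33.3 and 50.0% of the 46, 15 and 4 positions of the locus, and outside it 9.75, 25.9 and 35.2%. None of these differences was tested, and whether repeated events are PCR copies was not tested.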
